A study of Rattus norvegicus with 6 samples.

Results

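The genes described here encode the carriers that move amino acids, small peptides, sugars and monocarboxylates across the membranes of liver cells. They are the rat genes with a probe on the array, named through its RefSeq accession, that belong to the solute carrier families SLC1, SLC2, SLC3, SLC5, SLC6, SLC7, SLC15, SLC16, SLC36, SLC38 and SLC43, without Slc7a11. Of 99 such genes with 180 probes, 67 genes (106 probes) had a probe that the scanner software set well above background in all 3 rats of either group and were kept, out of 11344 genes kept in all. The rule uses gene names and this background filter, and takes in no difference between the groups. It was set with earlier results of these data known, so the choice is not independent of them. Matching by name also takes in Slc7a6os, which lies beside Slc7a6 and is not a carrier. It was not called, so the count of called genes below is 20 with or without it.

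Liver RNA came from 6 male Sprague-Dawley rats (Crl:CD(SD), bought at 5 weeks of age), with 1 Cy3-labelled Agilent array for each rat. The 3 treated rats received 1-amino-2,4-dibromoanthraquinone (ADBAQ), an anthraquinone dye intermediate, at 1000 mg/kg/day, and the 3 control rats received vehicle alone. Purified water is named as the vehicle in one field of the labels and corn oil in another, and the length of treatment is given as 28 days and as 9 weeks. Whole liver was used, so fewer cells of a type and less RNA per cell cannot be told apart. All vehicle arrays shared a slide and scan day and all ADBAQ arrays shared another, so slide, scan and treatment cannot be told apart in any difference below. Between 62.1% and 65.3% of the 61657 probes were well above background on an array, and the number of arrays limits the precision. The labelled tissue was checked against its markers: all 5 hepatocyte genes listed (Alb, Apoa1, Ttr, Serpina1, Tf) were well above background on all 6 arrays, and none of 3 acinar genes of the pancreas passed the background filter. Of all genes tested, 9.05% were called higher and 11.3% lower. Limma called lower 3 of 5 hepatocyte, 3 of 5 periportal, 3 of 6 pericentral, 2 of 2 kidney tubule and 1 of 4 T cell markers. It called 2 of 4 cholangiocyte markers higher and 1 lower, and 4 of 4 erythroid markers higher. It called none of 6 Kupffer cell, 5 stellate, 3 endothelial, 3 neutrophil, 3 skeletal muscle and 2 B cell markers, of which 0, 1, 2, 0, 0 and 0 had an unadjusted p under 0.05.

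Solute carriers of these families work as exchangers, facilitators or transporters driven by the sodium or proton gradient. In the liver, GLUT2 (Slc2a2) lets glucose in and out of hepatocytes, MCT1 (Slc16a1) carries lactate, pyruvate and ketone bodies with protons, and the system A and N carriers of the SLC38 family bring in alanine and glutamine for gluconeogenesis and urea synthesis. Some carriers need a partner at the membrane: SLC7 light chains pair with the heavy chain Slc3a2 or Slc3a1, and several monocarboxylate transporters travel with basigin (Bsg) or embigin (Emb).

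Values are log2 of the processed signal relative to the 75th percentile of the same array, so 0 means a signal equal to that percentile. They compare the same gene between rats, never different genes with each other. Differences are log2 fold changes, ADBAQ minus vehicle, ± the standard error (SE) of limma with n = 3 rats per group. A gene was called when its limma p, adjusted by Benjamini-Hochberg over all probes kept, was under 0.05.

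At issue was which carriers differed between ADBAQ and vehicle livers. Of the 67 genes, 20 (29.9%) were called, 8 higher and 12 lower in ADBAQ, where 20.3% of all genes tested were called, 9.05% higher and 11.3% lower. A call with at least a 2-fold difference was made for 8 of them, 5 higher and 3 lower, which is 11.9% of the carriers against 5.58% of all genes. Of the 5 higher, Slc15a1, Slc7a5 and Slc16a5 passed the background filter through the ADBAQ arrays alone, and over genes well above background on all 6 arrays the share was 8.47% (2 higher, 3 lower) against 4.71%. The SLC16 family of monocarboxylate and related transporters held 10 of the 20 calls. The median log2 fold change was -0.18 over the carriers and -0.04 over all genes. Leaving out any 1 of the 6 arrays lowered the count of called carriers, to 10 without ADBAQ replicate 1 or 3, 12 without vehicle replicate 1, 2 or 3 and 13 without ADBAQ replicate 2. The split of higher and lower also moved with the scaling: it was 10 and 9 with quantile normalization, 10 and 10 with arrays centred on their median, and 43 and 1 on a scale set by the spike-in controls (the spike-in scale below), where the median of all genes lay at 0.72. With normexp background correction it was 6 and 24.

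The background filter kept 8 of the 67 genes although they were not well above background on every array. Of these, 6 passed through the ADBAQ arrays alone, a choice that favours genes high in ADBAQ, and 2 through the vehicle arrays alone. Of the other 59, measured on all 6 arrays, 17 (28.8%) were called, 5 higher and 12 lower, against 20.1% of 10770 genes selected in the same way. Among the 32 carriers that were not kept, 23 were not well above background on any array, Slc38a1, Slc1a1, Slc6a19, Slc7a9 and Slc5a8 being 5 of them. The plot of the genes by family shows a wide spread in SLC16 beside a narrow one in SLC2.

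**Figure D1:**
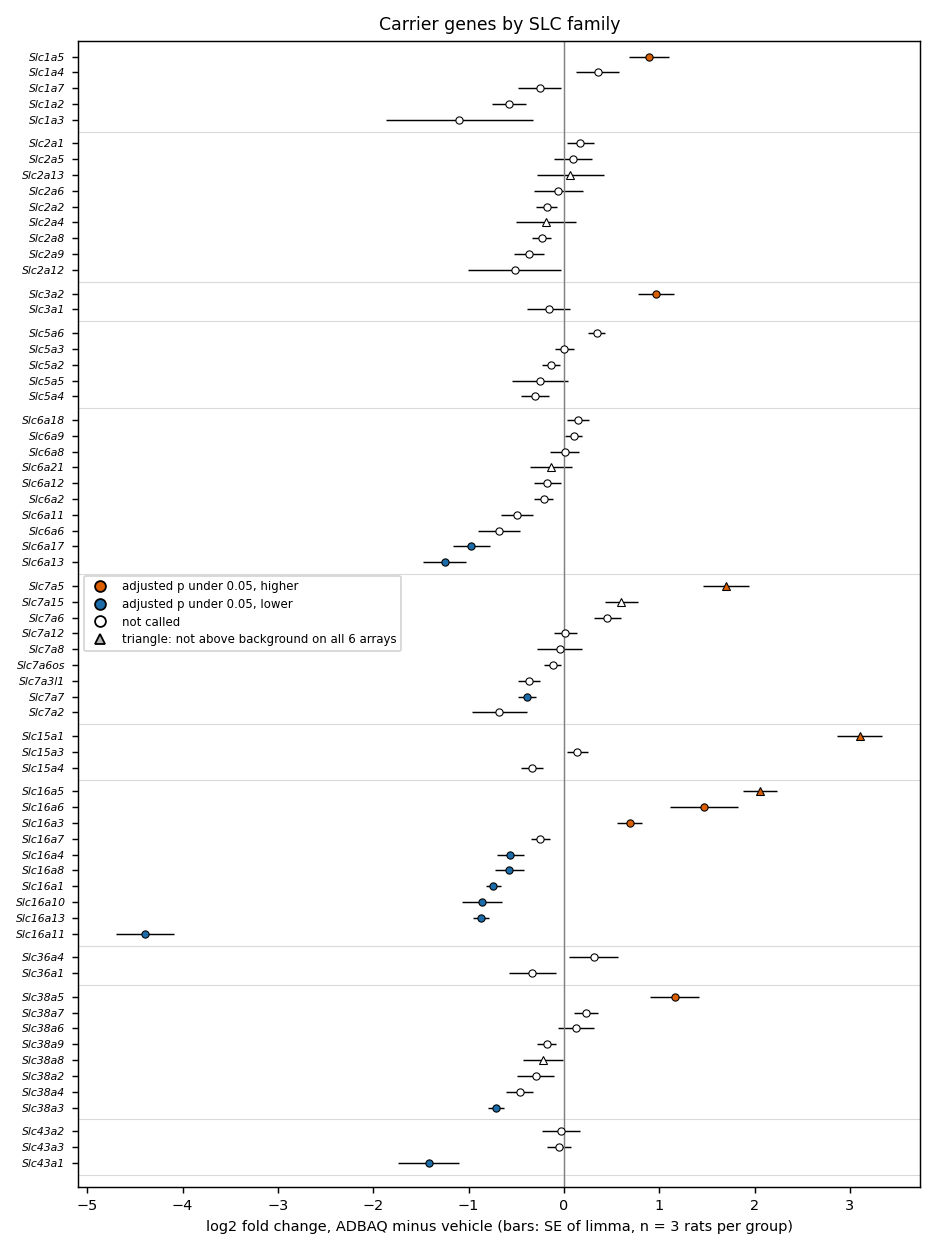
Log2 fold change (x axis, ADBAQ minus vehicle) of 66 of the 67 genes, grouped by family, with the SE of limma (n = 3 rats per group). Filled points were called (8 higher, 11 lower) and triangles mark the 8 genes that were not well above background on all 6 arrays. Slc16a11 lies farthest to the left, at -4.39, and Slc15a1 farthest to the right, at 3.10.

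Monocarboxylate carriers come first, because Slc16a11, a proton-coupled monocarboxylate transporter found in hepatocytes, had the largest difference of the 67 genes. Its values were 3.48, 2.60 and 3.57 in the vehicle rats and -1.46, -1.28 and -0.80 in the ADBAQ rats. Every ADBAQ rat lay more than 3 log2 units under the lowest vehicle rat. The log2 fold change was -4.39 ± 0.30 (limma adjusted p = 0.00155), a signal 21.0-fold lower, and a second probe of the gene gave -4.44. This call was kept with every array left out (-4.70 to -4.22) and in the other 11 settings tried, at -3.95 after normexp background correction and at -3.64 on the spike-in scale.

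Slc16a13, a further member of the family and the direct neighbour of Slc16a11 in the RefSeq gene order, was lower as well. The vehicle rats had 1.55, 1.53 and 1.66 and the ADBAQ rats 0.70, 0.77 and 0.67, tight groups that did not overlap. Its log2 fold change was -0.87 ± 0.09 (limma adjusted p = 0.00408), and the call was kept with every array left out. Both neighbours thus fell, by very different amounts. On the spike-in scale the value of Slc16a13 was -0.11 (adjusted p = 0.292).

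MCT1 (Slc16a1), the lactate, pyruvate and ketone body carrier named above, was lower by a small and even amount. Vehicle values were 2.74, 2.67 and 2.71, and those in ADBAQ 1.96, 1.95 and 1.99. No rat of either group came near the other group, the log2 fold change was -0.74 ± 0.08 (limma adjusted p = 0.00464), and the call was kept with every array left out. This fall is relative to the other genes of the array. The value was 0.01 (adjusted p = 0.907) on the spike-in scale. Slc16a7 (MCT2), a carrier of high affinity, did not pass the threshold at -0.25 ± 0.10 (95% interval -0.49 to -0.01, limma adjusted p = 0.127), although its groups did not overlap.

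The promoters of Slc16a11 and Slc16a1 are shown because they belong to the carrier with the largest fall and to the main lactate carrier. They are RefSeq windows of the GRCr8 build, from 250 bases before to 50 after the start of the gene, at chr10:55427705-55428004 on the plus strand and chr2:194812410-194812709 on the plus strand. Capitals mark the letters of 3 motifs, searched on both strands: TGATGNAA, the core of the element bound by C/EBP and ATF factors, GCGTG, the core of the dioxin response element of the aryl hydrocarbon receptor, and CACGTG, an E-box. In Slc16a1 they mark CACGTG at -216 and, on the other strand, GCGTG at -164, counted from the gene's start to the motif's first base in the window. None of the 3 motifs is in the window of Slc16a11.
Slc16a11: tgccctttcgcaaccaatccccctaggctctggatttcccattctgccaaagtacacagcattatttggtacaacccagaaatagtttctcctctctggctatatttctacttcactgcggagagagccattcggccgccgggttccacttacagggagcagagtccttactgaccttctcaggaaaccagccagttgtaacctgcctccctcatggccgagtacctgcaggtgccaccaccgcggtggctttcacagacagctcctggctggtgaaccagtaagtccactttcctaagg
Slc16a1: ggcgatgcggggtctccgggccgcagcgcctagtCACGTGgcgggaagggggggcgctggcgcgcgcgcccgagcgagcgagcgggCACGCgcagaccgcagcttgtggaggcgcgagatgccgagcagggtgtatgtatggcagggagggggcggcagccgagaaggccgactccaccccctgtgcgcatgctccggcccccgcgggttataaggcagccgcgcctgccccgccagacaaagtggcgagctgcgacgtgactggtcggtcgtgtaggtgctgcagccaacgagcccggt

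Fewer SLC16 members were higher. Slc16a5 had -4.77, -5.12 and -5.17 in vehicle and -3.29, -2.83 and -2.78 in ADBAQ. All 3 ADBAQ rats were above all vehicle rats, but only 1 vehicle array was well above background. The log2 fold change was 2.05 ± 0.18 (limma adjusted p = 0.00307). It was called in every setting that measured it, with a much smaller value of 0.51 under normexp background correction, where an offset of 50 was added to every signal.

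Slc16a6, a member linked to ketone body export from the liver, had 0.14, 0.10 and -0.71 in vehicle and 0.77, 1.92 and 1.25 in ADBAQ. Groups did not overlap but spread widely, with a log2 fold change of 1.47 ± 0.35 (limma adjusted p = 0.0375). That call was kept in 1 of 6 fits with an array left out, the one lacking ADBAQ replicate 1 (highest adjusted p = 0.0934), and its other 2 probes, at 1.51 and 0.69, did not pass. MCT4 (Slc16a3), the lactate exporter of glycolytic cells, had -2.77, -2.52 and -2.48 in vehicle and -1.92, -2.06 and -1.73 in ADBAQ, a log2 fold change of 0.69 ± 0.13 (limma adjusted p = 0.0191). It was lost without ADBAQ replicate 1 or 3 (highest adjusted p = 0.0631) and with normexp background correction (0.17, adjusted p = 0.173).

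Other called members of SLC16 were lower by less than 2-fold. Slc16a10, a transporter of aromatic amino acids, changed by -0.86 ± 0.21 (limma adjusted p = 0.0396), Slc16a4, an orphan member, by -0.56 ± 0.14 (0.0421), and Slc16a8 (MCT3), best known from the retina, by -0.58 ± 0.15 (0.0482). These 3 calls are fragile: each was kept in 1 of the 6 fits with an array left out, without ADBAQ replicate 3 for Slc16a4, without vehicle replicate 2 for Slc16a8 and without ADBAQ replicate 2 for Slc16a10. The highest adjusted p in those fits was 0.124 for Slc16a4, 0.136 for Slc16a8 and 0.119 for Slc16a10.

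In all, 10 of 11 measured SLC16 members were called, 3 higher and 7 lower, and in all 11 the groups did not overlap, with ADBAQ higher in 3 and lower in 8. Of all genes, 46.3% had groups that did not overlap, 21.2% with ADBAQ higher and 25.1% with ADBAQ lower. This family was singled out after its values were seen. The count was 10 with normexp background correction, 8 with quantile normalization, 9 with arrays centred on their median, and 5 (4 higher, 1 lower) when scaled to the spike-in controls, under which Slc16a1, Slc16a4 and Slc16a8 had values just above 0. It was 5 without vehicle replicate 1 or ADBAQ replicate 1 or 3, and 6 without vehicle replicate 2 or 3 or ADBAQ replicate 2. The summed level of the 5 hepatocyte markers moved in the same direction as most of the family (log2 of their summed relative signal), from 12.17 to 12.29 in vehicle against 11.86 to 11.96 in ADBAQ with 3 of 5 called lower, and its part in the result was not tested.

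**Figure D2:**
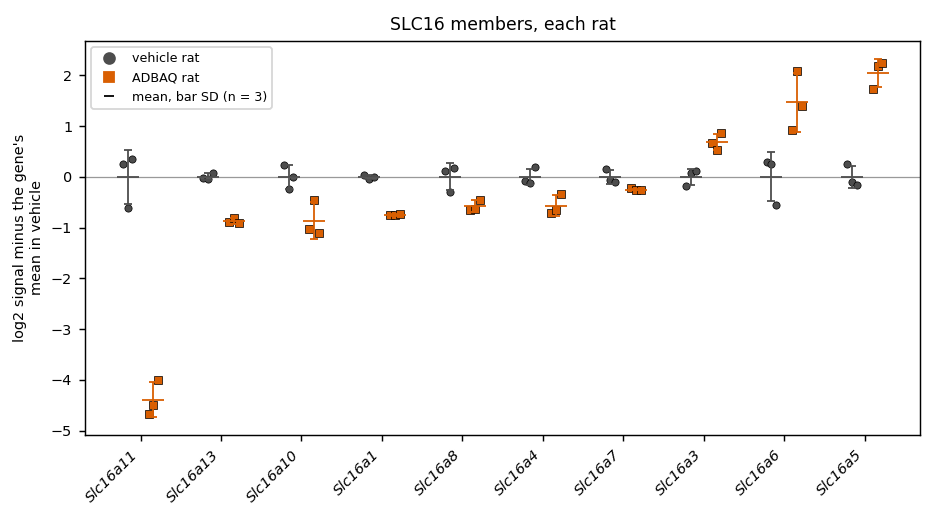
Log2 signal of 10 of the 11 SLC16 members in each rat, minus the gene's mean in vehicle (y axis), with mean and SD (n = 3). Circles are vehicle rats and squares ADBAQ rats. Slc16a11 lies more than 3 log2 units below vehicle in every ADBAQ rat, while Slc16a3, Slc16a6 and Slc16a5 lie above it.

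The partners of these carriers went separate ways, 2 of 8 measured partner genes being higher and 2 lower. Embigin (Emb) had -2.70, -2.40 and -2.59 in vehicle and -0.83, -1.24 and -0.95 in ADBAQ, and rose by 1.56 ± 0.14 (limma adjusted p = 0.0034). Basigin (Bsg), the usual partner of MCT1 and MCT4, was at 0.11 ± 0.09 (adjusted p = 0.394). Of 5 measured genes of lactate and pyruvate use, 3 fell and none rose: lactate dehydrogenase A (Ldha) changed by -0.58 ± 0.09, and the subunits of the mitochondrial pyruvate carrier, Mpc1 and Mpc2, by -0.45 ± 0.10 and -0.43 ± 0.11. The median of this list was -0.43. The share of all genes called lower was 11.3%.

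Among the heteromeric amino acid transporters, the chains of LAT1 were measured with unequal certainty. Slc3a2, the heavy chain shared by several SLC7 exchangers, had 3.08, 3.78 and 3.23 in vehicle and 4.33, 4.39 and 4.27 in ADBAQ. The ADBAQ rats lay close together above all vehicle rats, and the log2 fold change was 0.97 ± 0.19 (limma adjusted p = 0.0206). It was kept in 2 of 6 fits with an array left out, those lacking vehicle replicate 1 or 2 (highest adjusted p = 0.0680). Its value was 1.01 after normexp background correction and 1.72 on the spike-in scale.

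Slc7a5, the light chain of LAT1, which exchanges large neutral amino acids such as leucine, was dim and passed the background filter through the ADBAQ arrays alone, the group where it is high. Its values were -6.32, -6.05 and -5.91 in vehicle, where no array was well above background, and -4.01, -4.25 and -4.90 in ADBAQ. All ADBAQ rats were above all vehicle rats. Set against a floor in vehicle, the mean of the ADBAQ arrays was 1.73-fold higher. On each vehicle array the floor is the lowest signal well above background, used where the dim value lies under it. A signal not well above background can still lie above this floor, so 1.73 is no strict lower limit. As measured, the log2 fold change was 1.70 ± 0.24. The call was kept with every array left out but not with normexp background correction (0.02, adjusted p = 0.891).

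Promoters of these chains are shown because they form 1 transporter. Their windows lie at chr19:66872363-66872662 on the minus strand for Slc7a5 and at chr1:215048015-215048314 on the minus strand and chr1:215039621-215039920 on the minus strand for the 2 starts that RefSeq lists for Slc3a2. Capitals mark the same 3 motifs as above.
Slc7a5: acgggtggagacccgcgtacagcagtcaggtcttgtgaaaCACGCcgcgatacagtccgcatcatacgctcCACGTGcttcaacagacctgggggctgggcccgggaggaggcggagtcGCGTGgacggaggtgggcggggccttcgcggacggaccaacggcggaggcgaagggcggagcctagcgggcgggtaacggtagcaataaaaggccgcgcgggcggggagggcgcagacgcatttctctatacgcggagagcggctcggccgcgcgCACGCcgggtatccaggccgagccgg
Slc3a2, start A: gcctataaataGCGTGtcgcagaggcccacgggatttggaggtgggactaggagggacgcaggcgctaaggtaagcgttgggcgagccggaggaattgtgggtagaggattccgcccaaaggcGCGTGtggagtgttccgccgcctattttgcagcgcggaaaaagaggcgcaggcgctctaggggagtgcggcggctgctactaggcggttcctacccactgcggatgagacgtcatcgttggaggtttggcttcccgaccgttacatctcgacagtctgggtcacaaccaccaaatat
Slc3a2, start B: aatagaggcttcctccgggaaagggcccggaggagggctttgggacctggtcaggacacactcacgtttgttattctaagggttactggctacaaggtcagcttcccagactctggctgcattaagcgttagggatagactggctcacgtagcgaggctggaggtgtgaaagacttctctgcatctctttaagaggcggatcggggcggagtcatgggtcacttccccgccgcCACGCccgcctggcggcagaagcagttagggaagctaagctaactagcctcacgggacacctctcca
GCGTG occurs 3 times in the window of Slc7a5, beside 1 CACGTG, and 2 times and 1 time in those of Slc3a2, and TGATGNAA is in none of them.

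A RefSeq window was found for 54 of the 67 genes. GCGTG was in 17 of the 54 and in 29.7% of all 33469 windows, CACGTG in 8 of the 54 and in 6.42% of all windows, and TGATGNAA in Slc1a4 alone and in 3.98% of all windows. These counts are of genes, while the percentages are of windows. A gene can have several windows, as Slc3a2 does, so the counts and the percentages cannot be compared. Of 13 called genes with a window, 5 held GCGTG, 3 held CACGTG and none held TGATGNAA. CACGTG reads the same on both strands, and it shares letters with GCGTG, so matches of these motifs can overlap. A match is a description of the letters, not of binding.

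Other partners of Slc3a2 differed less. The light chain Slc7a7, which exports cationic amino acids, had -3.57, -3.70 and -3.78 in vehicle and -4.06, -4.07 and -4.07 in ADBAQ, and fell by 0.39 on the log2 scale (SE 0.09, limma adjusted p = 0.0348). This call was kept in 1 of 6 fits with an array left out, that without vehicle replicate 3 (highest adjusted p = 0.0988), was lost with quantile normalization, median centring and trend and robust eBayes, and turned to 0.37 (adjusted p = 0.0221) when scaled to the spike-in controls. Slc7a6, its close relative, was at 0.46 ± 0.14 (adjusted p = 0.0700) and Slc7a8 (LAT2), a neutral amino acid exchanger, at -0.04 ± 0.23 (0.908). Slc7a15, dim and well above background on 2 of 3 vehicle arrays, was at 0.60 ± 0.17 (0.0580). Slc3a1, the heavy chain known from kidney, was at -0.16 ± 0.23 (0.648). Of the 8 genes of heteromeric transporters 3 were called, 2 higher (Slc7a5 among them) and 1 lower, where 20.3% of all genes were called.

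Slc7a2 (CAT2), the arginine and lysine carrier of hepatocytes, had 0.11, -0.32 and 0.70 in vehicle and -0.86, -0.48 and -0.22 in ADBAQ on its brightest probe. These values overlap, and the log2 fold change of -0.68 ± 0.29 was not called (95% interval -1.38 to 0.02, limma adjusted p = 0.147). Its other probes gave -0.97 (adjusted p = 0.0114) and -1.04 (adjusted p = 0.0267) and were called, and so was the mean of its probes (-0.90, adjusted p = 0.0232).

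Carriers of glutamine and small neutral amino acids differed from each other in direction. Slc38a5 (SNAT5), a glutamine carrier, had -3.77, -3.48 and -2.98 in vehicle and -1.97, -2.64 and -2.12 in ADBAQ, without overlap. Its log2 fold change was 1.16 ± 0.26 (limma adjusted p = 0.0294), and 0.50 with normexp background correction. Leaving out an array kept the call in 2 of 6 fits, those lacking vehicle replicate 3 or ADBAQ replicate 2 (highest adjusted p = 0.0909). Erythroid markers were also higher, 4 of 4 called (Hbb, Hba-a1, Alas2, Slc4a1), with a summed level of 9.08 to 9.69 in vehicle and 10.09 to 10.44 in ADBAQ, and their part in this result was not tested.

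Slc38a3 (SNAT3), the system N carrier through which hepatocytes exchange glutamine, was lower. It had 2.70, 2.73 and 2.80 in vehicle and 2.04, 2.08 and 1.97 in ADBAQ, tight groups well apart, with a log2 fold change of -0.71 ± 0.08 (limma adjusted p = 0.00643). The call was kept with every array left out, while the value was 0.04 (adjusted p = 0.671) when scaled to the spike-in controls. Slc38a3 and Slc38a5 carry similar substrates and were called in opposite directions at the 75th percentile scaling.

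The system A carriers were not called. Slc38a4 (SNAT4), a liver carrier, had 6.42, 6.36 and 6.58 in vehicle and 6.25, 5.90 and 5.81 in ADBAQ, at -0.46 ± 0.14 (95% interval -0.80 to -0.13, limma adjusted p = 0.0660). Every ADBAQ rat was below every vehicle rat, and the gene passed after normexp background correction (-0.41, adjusted p = 0.0353), under trend and robust eBayes (adjusted p = 0.0373) and without ADBAQ replicate 1. Its neighbour Slc38a2 (SNAT2), known to respond to amino acid shortage, had 2.19, 2.25 and 2.76 in vehicle and 2.35, 2.06 and 1.90 in ADBAQ. The groups overlap, and the difference was -0.30 ± 0.19 (95% interval -0.76 to 0.17, limma adjusted p = 0.312). The lysosomal members Slc38a9, an arginine sensor, and Slc38a7, a glutamine exporter, were at -0.18 ± 0.10 (adjusted p = 0.243) and 0.23 ± 0.13 (adjusted p = 0.245).

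Slc1a5 (ASCT2), an exchanger of glutamine and other neutral amino acids, had -2.12, -1.64 and -1.55 in vehicle and -0.80, -1.20 and -0.64 in ADBAQ. The groups did not overlap and the log2 fold change was 0.89 ± 0.21 (limma adjusted p = 0.0341). Its second probe was at 0.20 (adjusted p = 0.464), and the call was lost with the mean of both probes (0.55, adjusted p = 0.0783). With an array left out it was kept in 1 of 6 fits, the one lacking ADBAQ replicate 2 (highest adjusted p = 0.103). Slc1a4 (ASCT1), its relative, was at 0.35 ± 0.23 (adjusted p = 0.307).

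The glutamate carriers were not called. Slc1a2 (GLT1), which in liver marks the hepatocytes around the central vein, had -0.38, -0.66 and -0.26 in vehicle and -1.03, -0.72 and -1.28 in ADBAQ. All ADBAQ rats were lower, at -0.58 ± 0.18 (95% interval -1.01 to -0.15, limma adjusted p = 0.0691), and the gene passed after normexp background correction (-0.52, adjusted p = 0.0199) and under trend and robust eBayes (adjusted p = 0.0482). Of 6 pericentral markers, among them Slc1a2 itself, 3 were called lower (Glul, Oat, Cyp2e1), where 11.3% of all genes were. Lgr5 (-0.47, limma adjusted p = 0.176) and Axin2 (-0.07, limma adjusted p = 0.842) were not called. The summed level, made up mostly of Cyp2e1, was 8.62 to 8.73 in vehicle and 7.41 to 7.84 in ADBAQ. The part of these markers in the value of Slc1a2 was not tested. Slc1a3 (GLAST), the second glutamate carrier, had a single high vehicle rat (0.25 against -2.09 and -2.29) and a wide error, at -1.10 ± 0.77 (adjusted p = 0.351).

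Slc43a1 (LAT3), a facilitative carrier of branched-chain amino acids, was lower. Its values were -0.51, -0.47 and 0.41 in vehicle and -1.90, -1.12 and -1.81 in ADBAQ, without overlap, a log2 fold change of -1.42 ± 0.32 (limma adjusted p = 0.0309). That call was kept in 2 of 6 fits with an array left out, those lacking vehicle replicate 1 or ADBAQ replicate 2 (highest adjusted p = 0.0960), and the value was -0.66 (adjusted p = 0.0731) on the spike-in scale. The relatives Slc43a2 and Slc43a3 were at -0.03 ± 0.20 and -0.05 ± 0.13.

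**Figure D3:**
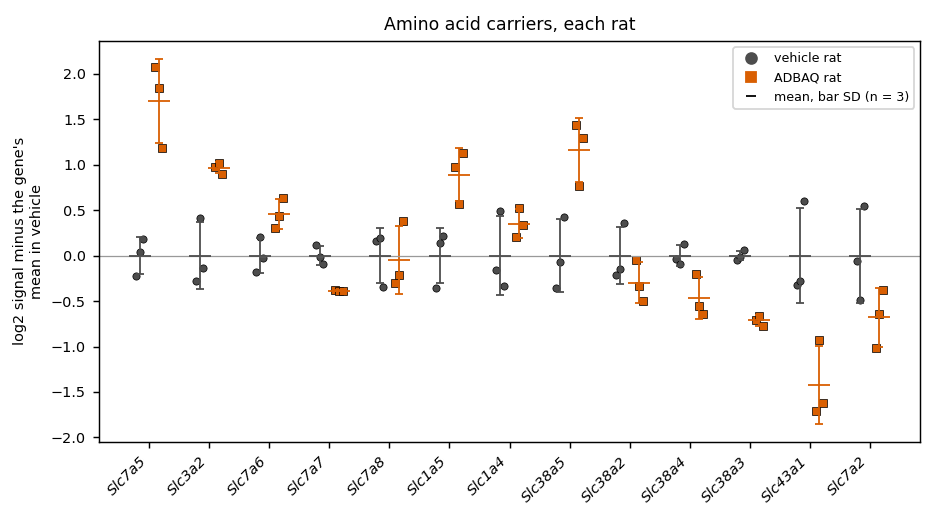
Log2 signal of 13 amino acid carriers in each rat, minus the gene's mean in vehicle (y axis), with mean and SD (n = 3). Circles are vehicle rats and squares ADBAQ rats. Every ADBAQ rat lies above all vehicle rats for Slc7a5, Slc3a2, Slc7a6, Slc1a5 and Slc38a5. Every ADBAQ rat lies below them for Slc7a7, Slc38a4, Slc38a3 and Slc43a1. Slc7a6 and Slc38a4 among these were not called.

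Slc15a1 (PEPT1), the proton-coupled carrier of dipeptides and tripeptides best known from the gut, had the largest increase as measured. The array holds 3 probes of the gene, and all but the probe given here failed the background filter. It had -7.21, -7.16 and -7.27 in vehicle, where no array was well above background, and -3.56, -4.33 and -4.44 in ADBAQ, where all 3 were. Set against the floor described for Slc7a5, it was 2.10-fold higher, a value that was not tested and is no strict lower limit. Its log2 fold change as measured was 3.10 ± 0.23 (limma adjusted p = 0.00204). With normexp background correction the value was 0.07 (adjusted p = 0.616), so the call rests on how a dim signal is treated. Cholangiocyte markers were higher at the same time, 2 of 4 measured called higher (Epcam, Cftr) and 1 lower (Krt7), with a summed level of 0.43 to 0.75 in vehicle and 1.06 to 1.64 in ADBAQ, and their part in this result was not tested. The endosomal and lysosomal relatives Slc15a3 and Slc15a4 were at 0.14 ± 0.11 and -0.33 ± 0.12 and were not called.

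In the SLC6 family of sodium and chloride dependent transporters 2 of 10 genes were called, both lower, a share near the 20.3% of all genes. Slc6a13 (GAT2), a hepatocyte carrier of taurine and GABA, had 4.30, 3.62 and 3.80 in vehicle and 2.89, 2.77 and 2.31 in ADBAQ. The groups did not overlap, and the log2 fold change was -1.25 ± 0.23 (limma adjusted p = 0.0174). The call was kept with every array left out (highest adjusted p = 0.0495), and the value was -0.50 (adjusted p = 0.0987) on the spike-in scale. Its neighbour Slc6a12, the betaine carrier, was at -0.17 ± 0.15 (adjusted p = 0.435).

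Slc6a6 (TauT), the main taurine carrier, had -0.61, -0.57 and -0.12 in vehicle and -0.99, -1.52 and -0.84 in ADBAQ. All ADBAQ rats were lower, but the difference of -0.68 ± 0.22 was not called (95% interval -1.21 to -0.15, limma adjusted p = 0.0781) except with normexp background correction (-0.60, adjusted p = 0.0310). Slc6a17, a vesicular carrier of neutral amino acids known from neurons, changed by -0.97 ± 0.19 (limma adjusted p = 0.0215). Its call was kept in 1 of 6 fits with an array left out, that without vehicle replicate 2 (highest adjusted p = 0.0705). The creatine carrier Slc6a8 and the glycine carrier Slc6a9 were at 0.01 ± 0.15 and 0.10 ± 0.09.

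None of the 9 facilitative sugar transporters of SLC2 was called by limma, and none had an unadjusted p under 0.05 on its brightest probe. GLUT2 (Slc2a2) had 4.65, 4.87 and 4.72 in vehicle and 4.71, 4.54 and 4.44 in ADBAQ on its brightest probe. The groups overlap, and the difference was -0.18 ± 0.11 (95% interval -0.45 to 0.09, limma adjusted p = 0.290). A fall of more than 0.45 on the log2 scale thus lies outside this interval, which holds for the brightest probe only. All 3 probes of the gene were below 0, at -0.18, -0.29 and -0.34. Scaled to the spike-in controls, which moves all genes up, the value was 0.57 (adjusted p = 0.00396).

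GLUT1 (Slc2a1), the widespread glucose carrier, had 0.27, 0.09 and 0.60 in vehicle and 0.48, 0.55 and 0.45 in ADBAQ, overlapping groups with a difference of 0.17 ± 0.14 (95% interval -0.18 to 0.52, limma adjusted p = 0.427). The urate and hexose carrier Slc2a9 was at -0.37 ± 0.15 (adjusted p = 0.143), and its second probe at -0.51 (adjusted p = 0.0640), where the groups did not overlap. The fructose carrier Slc2a5 was at 0.09 ± 0.20 (adjusted p = 0.773), and Slc2a12, whose vehicle rats spread widely, at -0.52 ± 0.48 (adjusted p = 0.481). None of the 5 SLC5 genes was called by limma, with 1 at an unadjusted p under 0.05: Slc5a6, the sodium-coupled vitamin carrier, at 0.34 ± 0.09 (adjusted p = 0.0505). Neither SLC36 gene was called and neither had an unadjusted p under 0.05, with Slc36a1 at -0.33 ± 0.25 and Slc36a4 at 0.31 ± 0.26. Of the 47 carriers that were not called, 16 were above 0 and 31 below, between -1.10 (Slc1a3) and 0.60 (Slc7a15).

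Genes that use what these carriers bring in were counted from lists. Of 8 genes of glucose handling 7 fell and none rose, with a median of -0.84: pyruvate kinase (Pklr) changed by -1.11 ± 0.10 and ketohexokinase (Khk), which starts fructose breakdown, by -0.66 ± 0.08. Of 8 genes of amino acid use 6 fell and 1 rose, with a median of -0.99. Gls2, Glul, Oat, Sds and Hal in this list are also periportal or pericentral markers counted above. Oat, ornithine aminotransferase, changed by -1.83 ± 0.13 and Gls2, the liver glutaminase, by -0.95 ± 0.09, while Tat, tyrosine aminotransferase, rose by 1.14 ± 0.15. The share of all genes called was 20.3%, and the median of all genes was -0.04.

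The amino acid response, in which ATF4 induces carriers and synthetic enzymes when amino acids run short, had 2 of 12 genes higher and 1 lower, with a median of 0.16, where 20.3% of all genes were called. Trib3, a pseudokinase, rose by 4.03 ± 0.34 and Atf3, a transcription factor, by 3.10 ± 0.34, whereas the kinase gene Eif2ak3 changed by -0.75 ± 0.18. Asns, asparagine synthetase, was at 0.32 ± 0.39 (limma adjusted p = 0.593), Chac1 at 0.19 ± 0.21 (0.544) and Atf4 itself at 0.52 ± 0.20 (0.115). Of 9 measured genes of lysosomal amino acid sensing 1 was called, Flcn, folliculin, at -0.70 ± 0.10. Among the partners of the carriers Txnip, which restrains GLUT1, changed by -0.54 ± 0.14.

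Of the 67 carriers, 30 had several probes kept. All probes had the same sign in each of the 5 called genes among them, and in 3 genes a probe other than the brightest was called while the brightest was not. These are Slc7a2, described above, Slc1a2, with 1 of its other probes lower (-0.82, adjusted p = 0.0375), and Slc7a6os, whose second probe, not well above background in any vehicle rat, was called in the opposite direction (0.93, adjusted p = 0.0125). Of the 20 called carriers, 8 kept their call with every array left out: Slc16a11, Slc16a13, Slc16a1, Slc16a5, Slc38a3, Slc6a13, Slc7a5 and Slc15a1. The calls of Slc16a5, Slc7a5 and Slc15a1 among them are of genes that passed the background filter through ADBAQ alone, and those of Slc7a5 and Slc15a1 were lost with normexp background correction. Slc16a11 and Slc16a5 were called in all settings that measured them. Among the called carriers, Slc15a1, Slc16a5, Slc16a8 and Slc38a5 had further probes on the array that did not pass the background filter.

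**Figure D4:**
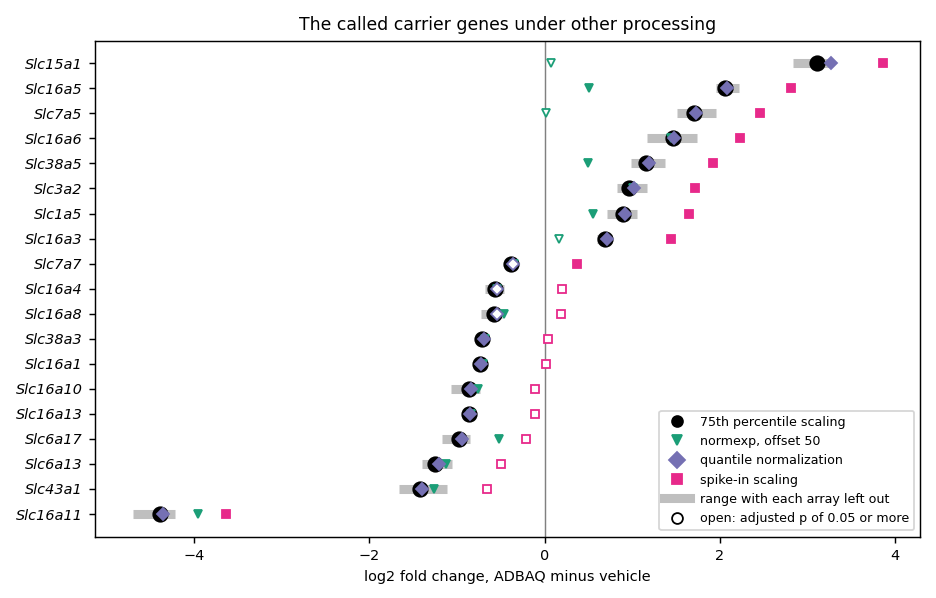
Log2 fold change (x axis, ADBAQ minus vehicle) of 19 of the 20 called carriers under 4 ways of processing, with filled symbols where the adjusted p was under 0.05. Grey bars give the range with each of the 6 arrays left out. Normexp values of Slc15a1 (0.07) and Slc7a5 (0.02) lie near 0, and spike-in scaling moves all genes to the right.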

How the data were processed

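Liver RNA of 6 rats was measured on 1-colour Agilent arrays. Per the file headers, the deposited scanner files were made with Agilent Feature Extraction 10.7.1.1 (10.7 in the submitters' processing notes) on a design built on rn4. They hold intensity values on a linear scale, background already removed, and flags of the kind other, per the file headers. The authors' deposited series table holds a ratio, the processed signal over the array's 75th percentile, as found from the values. Its column medians lay between 0.0929 and 0.0982. Replicates are separate animals, per the labels' protocols.

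Probes were named through RefSeq accessions (27460 of 61657 probes, 15284 genes, GRCr8 table). Control spots and outlier flags were left out, and no value of a carrier was among them. Probes set well above background in all 3 rats of either group (38695) were fitted with limma 3.58.1 in R 4.3.3 (lmFit, eBayes) on log2 signal minus the 75th percentile. A gene is its probe of highest mean signal. In simulated data with 38691 probes, 60 of 100 changes of 1 and 85 of 100 changes of 2 on the log2 scale were called, beside 6 unchanged probes. Only these changes were put in, a far smaller share than the 20.3% of genes called in the data. The adjusted p depends on that share, so these rates do not give the detection rate in the data. Members, lists, key genes and alternatives were chosen with earlier results of these data known, so no list count is independent support. Values on each array are given for members called with at least a 2-fold change and for the key genes of each family (Slc2a2, Slc2a1, Slc16a1, Slc7a5, Slc3a2, Slc7a2, Slc38a2, Slc38a4, Slc1a2, Slc6a6), and for further genes chosen after their values were seen. No column of the files was without a sample. The values of a few genes are not reported here, though they stay in the counts. The slide could not be fitted as a block, since each slide holds 1 group. Alternatives were normexp background correction of the median signal, quantile, median and spike-in scaling, other filters on dim probes, the series table, trend and robust eBayes, array weights, a replicate block, averaging over the probes of a gene, and each array left out.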

Additional observations from a re-analysis of the deposited data

How the results depend on the processing

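The count of called carriers (20) became 44 when scaled to the spike-in controls, 11 with a replicate block, and 10 to 13 with an array left out. That of all genes (2308) became 4041 with normexp background correction, 9130 when scaled to the spike-in controls, 3530 with no filter on dim probes, 982 with the replicate block, and 901 to 1547 with an array left out. The count of SLC16 members (10), a result added after seeing the data, became 5 when scaled to the spike-in controls, 5 with the replicate block and 5 to 6 with an array left out. The replicate numbers do not pair the rats: the correlations of deviations for the same number were -0.0292, -0.02004 and -0.00456, and no sample correlated best with its own number. Over the 66 carriers reported and all alternatives, 913 of 1114 values kept sign and side of the threshold, 76 kept the sign and lost the call, 44 kept the sign and gained it, and 81 changed sign, 24 of them called before or after and 57 in neither. Scaling to the spike-in controls, 8 probes that move the median of all genes to 0.72, turned 35 of 42 carriers from below to above 0, 12 of them called on neither scale and 23 called on one or both: Slc15a4 (0.42), Slc16a1 (0.013), Slc16a4 (0.19), Slc16a7 (0.51), Slc16a8 (0.18), Slc2a2 (0.57), Slc2a6 (0.70), Slc2a8 (0.52), Slc38a3 (0.043), Slc38a8 (0.54), Slc38a9 (0.57), Slc3a1 (0.59), Slc43a2 (0.73), Slc43a3 (0.70), Slc5a2 (0.62), Slc5a4 (0.45), Slc6a12 (0.58), Slc6a2 (0.55), Slc6a21 (0.62), Slc7a3l1 (0.39), Slc7a6os (0.64), Slc7a7 (0.37) and Slc7a8 (0.71). The mean of its probes gave 0.41 for Slc7a6os. Beyond the shared shift, the cause was not tested. The slide as a block was not run, since each slide holds 1 group. Dim probes near background (Slc15a1, Slc7a5) were not well above background in vehicle, so their folds were also set against a floor.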
